A study of Mus musculus with 3 samples.

Results

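The genes described here encode the nuclear subunits of the oxidative phosphorylation chain, the set of 5 membrane complexes with which mitochondria turn the energy of fuel molecules into ATP. Members were chosen by symbol alone: names beginning with Nduf followed by the letter of a complex I subunit, Sdha to Sdhd, Uqcr, Cox4 to Cox8 followed by a, b or c, or Atp5, with at least 1 protein-coding transcript. This gave 83 genes of 55536 annotated genes and of 21901 with a protein-coding transcript, carrying 82 symbols because Atp5o has a second, unread entry. By name they fall into 37 genes of complex I, 4 of complex II, 8 of complex III, 16 of complex IV and 18 of complex V. All 83 lie on nuclear chromosomes, spread over 19 of them. The symbols are not a perfect roll of subunits. Ndufa4, placed here with complex I by name, is now counted with complex IV, Cox7a2l is a factor that joins complexes into supercomplexes, and Atp5s is not a subunit of the enzyme. The subunits Cox4i1, Cox4i2, Cyc1 and Ndufab1 and the electron carrier Cycs have names that the symbol rule does not match, and they are given separately.

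RNA was taken from the chromatin fraction of bone marrow-derived macrophages, phagocytes grown from the marrow of C57BL/6J mice, and sequenced as total RNA after depletion of ribosomal RNA. All libraries come from a single group: cells treated for 120 min with 100 ng/ml of lipid A, the part of bacterial lipopolysaccharide that the receptor TLR4 binds. The 3 libraries are labelled biological replicates 1, 2 and 3 and share a donor label, and sex and age were not collected. Nothing says that they came from separate cultures, so p-values speak only of these libraries, and the spread between them may be technical. The chi-square p-values below set differences between libraries against counting error, and the limma p-values use the spread between libraries as the error. No untreated cells were analysed here, and nothing below is a response to lipid A.

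Complex I takes electrons from NADH and complex II from succinate, both pass them to ubiquinone, complex III hands them on to cytochrome c, and complex IV delivers them to oxygen. Complexes I, III and IV pump protons as they do so, and complex V lets the protons flow back and makes ATP. A few core subunits are encoded by mitochondrial DNA, while all others come from nuclear genes and must be imported. In macrophages the chain is also a signalling device, because bacterial products shift these cells towards glycolysis and change the traffic of electrons through complexes I and II. RNA of the chromatin fraction is rich in transcripts still being made or processed. Levels here are levels of RNA in that fraction and not of the mRNA pool of the cell or of protein. The fraction also held RNAs of the cytoplasm and of mitochondria, as given below.

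Library totals were 19919358, 20430415 and 22023921 expected counts in replicates 1, 2 and 3, and the 83 members together held 7732, 14033 and 10448 of them, or 0.0392%, 0.0689% and 0.0475% of the counts of annotated genes. Where a gene had 0 counts, counting error (a limit of 3 counts) leaves room for 0.152, 0.147 and 0.137 CPM (counts scaled to library size). All 8 macrophage markers stood at or above 1 TPM (a level scaled for transcript length and library size) in every library, and Lyz2 was the highest at 334 TPM on average. Markers of B cells, neutrophils and stromal cells (4 genes each), striated muscle (5 genes) and germ cells (4 genes) had no gene at 1 TPM in every library, and the T cell list had 1 of 4, Lck, with Cd3e and Cd3g at 0. This absence rests on the main tables. In those of the other quantifier, means reached 19.6 TPM for the muscle marker Actn2 and 7.68 TPM for Cd3d. List medians there, averaged over libraries, were 3.635 TPM for T cells, 1.51 TPM for striated muscle and 0.079 to 0.37 TPM for the other non-macrophage lists. Replicate 2 stood apart from the others. RNAs of the cytoplasm (Actb, Eef1a1, B2m, Gapdh and Tpt1) summed to 1875 TPM in replicate 2, against 579 and 595 TPM in replicates 1 and 3, while 4 RNAs that stay on chromatin, led by Malat1, summed to 9789, 11390 and 15660 TPM in replicates 1, 2 and 3. Starting RNA was 1 µg, 250 ng and 500 ng in the same order and cannot be told apart from the replicate.

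Start regions of these genes were searched for binding motifs, some of them long linked to mitochondrial biogenesis, and most windows lacked any given one of those. The 5 genes shown stand out below by level or by their spread between libraries, or hold motifs of more than 1 such factor. Each window is 200 bases before to 30 after the start, 5′ to 3′ on the gene's strand, from RefSeq on GRCm38.p6. Capitals mark matches to the motifs searched. The window of Atp5b, the most abundant member, is chr10:128083107-128083336 on the plus strand. The windows of Uqcr10 and Cox8a, with the widest gaps between libraries, are chr11:4704315-4704544 and chr19:7217587-7217816 on the minus strand. Those of Uqcr11 and Atp5k are chr10:80406792-80407021 and chr5:108434370-108434599, also on the minus strand.
Atp5b: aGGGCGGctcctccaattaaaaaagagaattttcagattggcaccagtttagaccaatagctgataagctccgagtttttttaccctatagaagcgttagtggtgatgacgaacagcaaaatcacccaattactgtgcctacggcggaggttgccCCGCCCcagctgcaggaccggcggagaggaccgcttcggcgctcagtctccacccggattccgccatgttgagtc
Uqcr10: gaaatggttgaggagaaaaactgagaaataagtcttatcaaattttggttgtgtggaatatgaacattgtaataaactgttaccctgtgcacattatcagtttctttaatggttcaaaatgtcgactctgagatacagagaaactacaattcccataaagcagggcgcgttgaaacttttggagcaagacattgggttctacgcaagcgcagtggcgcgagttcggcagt
Cox8a: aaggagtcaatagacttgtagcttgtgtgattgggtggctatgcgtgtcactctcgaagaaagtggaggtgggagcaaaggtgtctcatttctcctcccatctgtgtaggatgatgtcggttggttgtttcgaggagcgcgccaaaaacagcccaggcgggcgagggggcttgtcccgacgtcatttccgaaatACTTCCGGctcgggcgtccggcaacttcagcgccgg
Uqcr11: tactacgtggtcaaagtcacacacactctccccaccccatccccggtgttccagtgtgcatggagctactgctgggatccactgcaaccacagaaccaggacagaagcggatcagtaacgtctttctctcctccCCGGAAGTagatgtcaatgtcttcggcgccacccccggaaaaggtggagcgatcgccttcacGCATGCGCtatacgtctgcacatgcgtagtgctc
Atp5k: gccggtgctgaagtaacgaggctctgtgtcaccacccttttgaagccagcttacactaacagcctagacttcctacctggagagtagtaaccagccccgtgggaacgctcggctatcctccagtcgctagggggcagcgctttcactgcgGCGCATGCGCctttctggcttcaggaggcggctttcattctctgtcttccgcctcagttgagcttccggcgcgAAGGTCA
In this window Atp5b holds GGGCGG on either strand at positions -199 and -45, Cox8a holds CCGGAAGT at -6, Uqcr11 holds CCGGAAGT at -66 and GCATGCGC at -4, and Atp5k holds GCATGCGC in overlapping matches at -50 and -48 and AAGGTCA at 24. Positions are of the leftmost base, with 1 at the start. None of the searched letters occurs in the Uqcr10 window.

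Windows of 300 bases (250 before to 50 after the start) were found for 69 of the 83 members and for 16892 genes with a protein-coding transcript in all, and each motif was sought on both strands. GCATGCGC, the core of sites for the biogenesis factor NRF1, was in 10 of the 69 members' windows (14.5%), against 3.74% of all windows and 5.94% of those of 7412 genes whose mean reached 1 TPM. AAGATGGC, a core of YY1 sites, was in 9 (13%), against 3.26% of all and 5.44% of the detected. AAGGTCA, bound by estrogen-related receptors, was in 8 (11.6%), against 3.88% and 2.87%. CCGGAAGT, the core bound by ETS factors such as GABP, was in 5 (7.25%), against 5.49% and 10%. GGGCGG, bound by SP factors, was in 28 (40.6%), against 47.9% and 66.3%, and TATAAA was in 7 (10.1%), against 13.1% and 6.77%. The median GC content of the windows was 57.0% in members, 56.7% in all and 61.0% in the detected genes. These are matches of letters, no site was tested, and matches on either strand of a self-overlapping motif such as GCATGCGC were counted once per gene.

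RNA of most of the chain was present in the chromatin fraction, which does not show that it was bound to chromatin. Of 83 members, 67 were at or above 1 TPM in every library, against 37.6% of all 21901 genes with a protein-coding transcript. Their median level was 2.58, 9.45 and 3.16 TPM in replicates 1, 2 and 3, against 0.22, 0.29 and 0.27 TPM for all those genes. Among genes at 1 TPM in every library the members stood at medians of 3.43, 11.1 and 4.50 TPM, against 6.92, 10 and 9.81 TPM for the 8228 such genes as a whole, below them in replicates 1 and 3 and above them in replicate 2. Complex V stood highest in all 3 libraries, with medians of 5.62, 17.2 and 6.81 TPM in replicates 1, 2 and 3. Complex IV had 2.30, 13.1 and 2.62 TPM, complex III 3.09, 12.8 and 2.90 TPM, complex II 3.24, 8.08 and 4.53 TPM and complex I 1.91, 8.01 and 2.88 TPM. On the log2(TPM + 0.1) scale complex V stood 1.27 ± 0.21 above complex I (SD, n = 3 libraries), a 2.40-fold difference of medians that was seen in 3 of 3 libraries, and 0.85 ± 0.44 above complex III and 0.89 ± 0.21 above complex II. The gap to complex IV, 1.01 ± 0.53, came with 6 genes of complex IV near 0: among members with a mean of at least 1 TPM it was -0.04 ± 0.22. Under that filter complex IV stood 1.40 ± 0.0025 above complex I, 1.04 ± 0.33 above complex II and 1.01 ± 0.41 above complex III. Over all members complexes I to IV changed order between libraries, and no difference among them had the same sign in all 3. An exact two-sided test that flips signs over 3 libraries cannot reach a p below 0.25, and none was run. In such bulk libraries fewer cells of a type and less RNA per cell cannot be told apart.

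**Figure D1:**
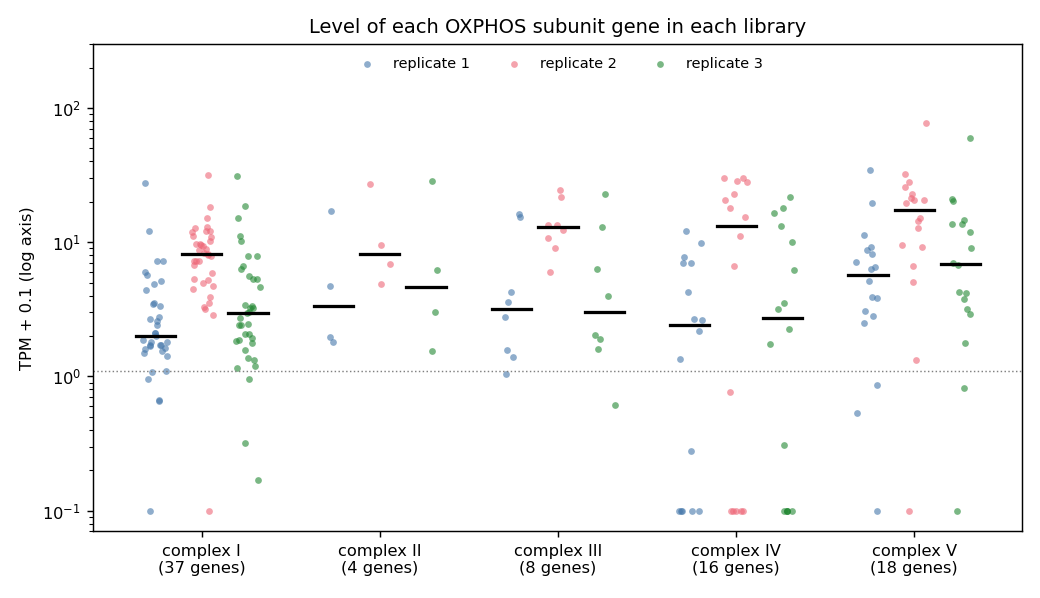
Level of each of the 83 genes in each library (TPM + 0.1, log axis), grouped by complex, with replicates 1, 2 and 3 side by side, black bars at the medians and a dotted line at 1 TPM. Medians of complex V lie above those of the other complexes in each library, and replicate 2 lies above replicates 1 and 3 in every complex.

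Complex I holds core subunits, those shared with the bacterial enzyme, and accessory subunits. The core subunit Ndufs1, which carries electrons over iron-sulfur clusters (chromosome 1, 63143596 to 63176833), had 11.95, 15.2 and 18.4 TPM in replicates 1, 2 and 3. The accessory subunit Ndufa10 had 7.16, 12.7 and 14.95 TPM. By TPM both were lowest in replicate 1 and highest in replicate 3. By scaled CPM, used for the comparison of libraries below, Ndufa10 was highest in replicate 2, with 7.4, 11.25 and 9.24. At the bottom stood Ndufa4l2, a hypoxia-induced relative of Ndufa4, with 1 count in replicate 3 and 0 in the other libraries, and the accessory subunit Ndufb6 with 0.57, 3.41 and 0.22 TPM. The 7 nuclear core subunits, a split chosen after values were seen, stood at 5.89, 9.64 and 10.1 TPM by median in replicates 1, 2 and 3, against 1.66, 7.52 and 2.34 TPM for the 30 other members of the complex. Core subunits were thus higher in each library, least so in replicate 2.

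Complex II, the succinate dehydrogenase that also belongs to the citric acid cycle, is encoded by nuclear genes only, and all 4 were present. Sdha, the flavoprotein that oxidizes succinate (chromosome 13, 74322254 to 74350280), had 17.0, 26.9 and 28.5 TPM in replicates 1, 2 and 3. Sdhb, its iron-sulfur partner, had 4.6, 9.42 and 6.15 TPM. The membrane anchors were lower still, Sdhd with 1.87, 6.74 and 2.91 TPM and Sdhc with 1.69, 4.77 and 1.44 TPM. The order Sdha, Sdhb, Sdhd, Sdhc was the same in all 3 libraries, and Sdha did not overlap any of the others. In the tables of the other quantifier Sdhc, at 5.69, 10.6 and 11.2 TPM, stood above Sdhb, at 5.57, 7.54 and 9.07 TPM, and above Sdhd in every library.

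Complex III was led by a large core protein and the hinge protein. Uqcrc1 (chromosome 9, 108936633 to 108949623) had 16.1, 21.5 and 22.7 TPM in replicates 1, 2 and 3, and Uqcrc2, the other large core protein, had 3.50, 8.88 and 6.22 TPM. The gap between them was smaller with the other quantifier, at means of 21.7 TPM for Uqcrc1 and 17.8 TPM for Uqcrc2. Uqcrh, the acidic hinge protein that helps dock cytochrome c, had 15.2, 24.3 and 12.9 TPM, a range that overlaps that of Uqcrc1. Uqcrfs1, the Rieske iron-sulfur protein that moves electrons within the complex, had 1.47, 5.93 and 1.92 TPM. The small subunits were all highest in replicate 2. Uqcrb, which borders a ubiquinone site, had 13.4 TPM there, against 2.67 and 3.88 TPM in replicates 1 and 3. Uqcr11 had 13.4 TPM there, against 4.15 and 1.79 TPM, and Uqcrq 10.7 TPM, against 1.29 and 1.51 TPM. Uqcr10 had 12.2 TPM in replicate 2, against 0.94 and 0.51 TPM in replicates 1 and 3, and did not overlap its own level elsewhere.

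Complex IV split into genes that were clearly present and genes near 0. Cox7c, the highest on average (chromosome 13, 86044816 to 86046904), had 7.68, 30.2 and 21.6 TPM in replicates 1, 2 and 3. Cox5a, whose protein faces the matrix, had 12.1, 28.2 and 17.7 TPM, and Cox6c had 6.87, 28.5 and 16.5 TPM. These leaders overlapped each other in their range over libraries, so their order is not settled. Cox6b1, which links the monomers of the dimeric enzyme, had 6.94, 30.3 and 13.2 TPM.

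The paralogs sorted by tissue. Where the mouse has a broadly used gene and a muscle or testis form, reads lay on the broad form. Cox6a1 had 2.60, 17.9 and 1.65 TPM in replicates 1, 2 and 3, and Cox6a2, its heart and skeletal muscle form, had 0.18, 0 and 0.21 TPM from 2, 0 and 2 counts. Cox7a2 had 2.08, 11.0 and 3.07 TPM and the muscle form Cox7a1 had 2 counts, all in replicate 2. Cox8a had 1.25, 22.7 and 3.44 TPM, and its muscle form Cox8b and testis form Cox8c had 0 counts in every library. The testis forms Cox6b2 and Cox7b2 also had 0 counts, while Cox7b had 2.52, 6.58 and 2.16 TPM. Cox7a2l had 4.13, 15.2 and 6.13 TPM. The striated muscle markers summed to 0.12, 0.10 and 0.12 TPM in replicates 1, 2 and 3 and the germ cell markers to 0.21, 0.10 and 0.36 TPM. With the other quantifier, which estimates counts of transcripts from the reads in a separate way, the mean was 3.65 TPM for Cox7a1 and 1.79 TPM for Cox8b. It was 19.6 TPM for the striated muscle marker Actn2. The absence of these forms and of the muscle markers thus rests on the main tables. Ndufa4 had 1.69, 12.9 and 1.05 TPM. AA467197, its relative that is known to be raised by inflammatory stimuli in macrophages, had 4.90, 11.9 and 13.2 TPM and so stood above Ndufa4 in replicates 1 and 3 but not in replicate 2.

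**Figure D2:**
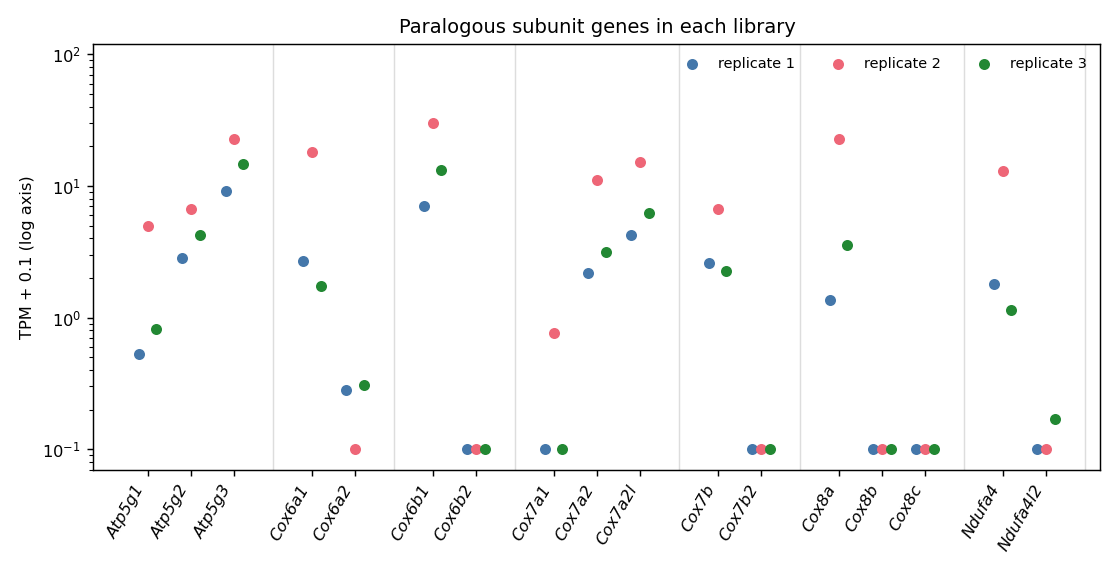
Levels of paralogous subunit genes in each library (TPM + 0.1, log axis), with replicates 1, 2 and 3 side by side within each gene. Apart from Atp5g1, the broadly used forms lie above 1 TPM in every library, while Cox6a2, Cox6b2, Cox7a1, Cox7b2, Cox8b, Cox8c and Ndufa4l2 lie below 1 TPM, 4 of them at 0 throughout.

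Complex V held the most abundant member of all. Atp5b, the catalytic beta subunit (chromosome 10, 128083273 to 128090391), whose start region is printed above, had 34.5, 77.7 and 59.9 TPM in replicates 1, 2 and 3. Atp5a1, the alpha subunit with which it forms the head of the enzyme, had 19.4, 32.2 and 20.2 TPM, although both proteins are used in equal number. Atp5b was above Atp5a1 in every library, and the ranges did not overlap. Atp5k, the small membrane subunit e, had 11.2, 25.6 and 13.5 TPM. The rest of the head and central stalk, a grouping chosen after values were seen, was lower on average: Atp5c1 had 6.18, 12.7 and 6.92 TPM, Atp5e 3.77, 20.7 and 2.82 TPM, and Atp5d 2.40, 9.04 and 3.09 TPM. The lowest were the second entry of Atp5o, with 0 counts, and Atp5s with 0.77, 1.22 and 1.67 TPM.

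The c ring, the rotor that protons turn, is made from a subunit that mammals encode in 3 genes whose mature proteins are identical, and the genes differed in level. Atp5g3 had 9.13, 22.6 and 14.6 TPM in replicates 1, 2 and 3, Atp5g2 had 2.74, 6.57 and 4.15 TPM, and Atp5g1 had 0.43, 4.91 and 0.72 TPM. The order was the same in all 3 libraries, and the range of Atp5g3 lay above those of both others. The last 90 coding bases before the stop codon are printed because they show how far reads can be told apart. They lie in the final coding exon at chr11:96073107-96073196 for Atp5g1, chr15:102663017-102663106 for Atp5g2 and chr2:73908596-73908685 for Atp5g3 (mm10, all on the minus strand), and capitals mark the 24 positions at which the genes are not all alike.
Atp5g1: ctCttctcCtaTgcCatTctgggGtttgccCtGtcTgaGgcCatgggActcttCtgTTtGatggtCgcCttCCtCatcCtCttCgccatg
Atp5g2: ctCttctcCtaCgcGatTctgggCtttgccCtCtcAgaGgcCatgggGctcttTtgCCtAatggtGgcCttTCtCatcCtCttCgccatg
Atp5g3: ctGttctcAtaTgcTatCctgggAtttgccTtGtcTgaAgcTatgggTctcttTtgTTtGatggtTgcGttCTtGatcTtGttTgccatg
Of these 24 positions 20 are the last position of a codon. Atp5g1 differs from Atp5g2 at 12 of the 90 bases and from Atp5g3 at 17, and Atp5g2 from Atp5g3 at 23.

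Genes around the chain gave a mixed picture. Cox4i1, the complex IV subunit that the symbols miss, had 13.1, 47.3 and 14.8 TPM in replicates 1, 2 and 3, and its lung form Cox4i2 had 0.08, 0 and 0 TPM. Assembly factors build the complexes without staying in them, and the list of 48 used here also holds Atpif1, an inhibitor of complex V. Of the 48, 28 were at or above 1 TPM in every library: 6 of 14 for complex I, 1 of 4 for complex II, 2 of 6 for complex III, 15 of 20 for complex IV and 4 of 4, Atpif1 included, for complex V. The highest and lowest of each list on average were Foxred1 with 11.98 TPM and Nubpl with 0.40 TPM for complex I, Sdhaf2 with 9.79 TPM and Sdhaf1 with 0.20 TPM for complex II, and Uqcc1 with 7.67 TPM and Lyrm7 with 0.15 TPM for complex III. For complex IV they were the copper chaperone Cox17 with 27.6, 46.4 and 47.5 TPM, above every complex IV gene that the symbols match in each library but below Cox4i1 in replicate 2, and Pet117 with 0.24, 0 and 0 TPM. For complex V they were the inhibitor Atpif1 with 19.6 TPM and Atpaf2 with 2.01 TPM on average.

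Of 12 transcriptional regulators of mitochondrial biogenesis 8 were at 1 TPM in every library. The coactivator Pprc1 was the highest with 20.1, 33.3 and 32.9 TPM, and its relative Ppargc1a (PGC-1alpha), the coactivator best known from muscle and brown fat, was the lowest with 0.01, 0 and 0.01 TPM. Genes that link the chain to inflammation were all present. Acod1, which makes itaconate, an inhibitor of complex II, had 119, 205 and 153 TPM in replicates 1, 2 and 3. AA467197 was the lowest of that list at 9.99 TPM. The 13 mitochondrially encoded subunits, of which mt-Atp8 was the highest on average and mt-Co2 the lowest, summed to 5037 TPM in replicate 2, against 426 and 512 TPM in replicates 1 and 3.

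The level of the subunits differed between libraries more than counting error allows. A chi-square test of homogeneity on counts scaled with edgeR's TMM factors called 70 of the 75 members with a mean count of at least 10 (Benjamini-Hochberg adjusted p below 0.05 over 14200 genes), while 68.8% of all genes tested were called. Of the 75, 67 were called and highest in replicate 2, against 24.3% of all genes tested. The 8 members not tested are Ndufa4l2, the 6 tissue forms of complex IV and the second Atp5o entry, and 4 of the 75 reached the minimum only through their counts in replicate 2. With replicate 2 left out, 18 of 71 members were called between replicates 1 and 3, against 54.7% of all genes. The call depends on the count level, and the size of the gap between replicates 1 and 3 was much alike, with a median of 0.37 (log2) in members and 0.43 in all genes tested.

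The size of this departure is given as log2 of the scaled CPM + 0.1 in replicate 2 minus the mean of replicates 1 and 3. Its median over the 75 members was 0.91 (1.89-fold), against 0.07 for all 14200 genes tested. By complex it was 1.75 in complex IV (10 genes), 1.53 in complex III (8), 1.00 in complex II (4), 0.98 in complex I (36) and 0.81 in complex V (17). The 13 mitochondrially encoded subunits stood at 3.42, 77 cytosolic ribosomal protein genes at 1.57 and 37 proteasome genes at 0.30. Complexes III and IV thus departed about as far as ribosomal protein genes. These differences between sets were not tested. The departure ran alongside that of the 5 cytoplasmic mRNAs (median 2.08) and of 6 of 8 macrophage markers called and highest in replicate 2, while the 4 chromatin-bound RNAs had a median of -0.18. Their part in the members' departure was not tested. With the other quantifier the members' median was 0.51 and the order turned, with 0.92 in complex III, 0.61 in complex IV, 0.52 in complex II, 0.50 in complex V and 0.43 in complex I.

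**Figure D3:**
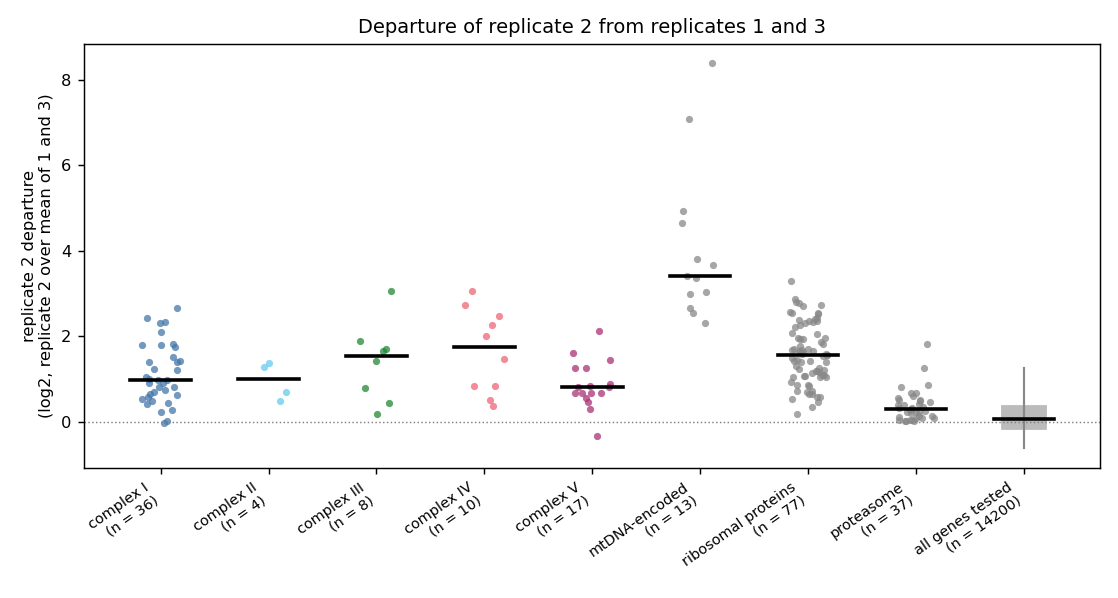
Departure of replicate 2 from the mean of replicates 1 and 3 (log2) for each tested gene, by complex, beside mitochondrially encoded subunits, cytosolic ribosomal protein genes, proteasome genes and all genes tested, with black bars at the medians. For all genes the box spans the quartiles and the line the central 90% and all members but Ndufs1 and Atp5s lie above 0.

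The members with the largest departures were small subunits with few exons. Uqcr10 had 48 counts in replicate 2, against 5 and 3 in replicates 1 and 3, a departure of 3.07 (8.41-fold). Uqcr10 and Ndufa1 are among the 4 members that reached the count minimum only through replicate 2, so their high departure there is given without a test. Cox8a had 140 counts in replicate 2, against 10 and 23 in replicates 1 and 3, a departure of 3.06 (8.36-fold, adjusted p = 1.44e-39 by the chi-square test). Their start regions, printed above, share none of the searched motifs. Cox6a1 followed with 2.74, Ndufa1 with 2.68 and Cox7b with 2.47, from 119, 64 and 67 counts in replicate 2. The departures were smaller with the other quantifier, at 1.39 for Uqcr10, 1.32 for Cox8a, 1.79 for Cox6a1, 2.31 for Ndufa1 and 1.03 for Cox7b. In each of these 5 genes the count in replicate 2 was higher than in both other libraries together.

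Other members departed little. Ndufs1 had 566 counts in replicate 2, against 498 and 686 in replicates 1 and 3, a departure of -0.02 (adjusted p = 0.871). Atp5s, the member that is no subunit, had 17 counts, against 19 and 26, a departure of -0.33 (adjusted p = 0.711). Within complex I the 7 core subunits had a median departure of 0.43 and the 29 tested others 1.22, a split chosen after the values were seen. In complex II the departure was 0.48 for Sdha, 0.71 for Sdhb, 1.37 for Sdhd and 1.29 for Sdhc, and in complex III it was 0.18 for Uqcrc1, 0.43 for Uqcrh, 0.80 for Uqcrc2 and 1.65 for Uqcrfs1.

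The departure was smaller in genes with more exons. Across the 75 members it correlated with the exon number of the longest protein-coding transcript at r = -0.540 and rho = -0.509, and with the span of the gene at r = -0.398 and rho = -0.403 (both on a log2 scale for r). Across 10993 tested genes with a protein-coding transcript the values for exon number were -0.213 and -0.233. These are descriptions across genes that share libraries, and genes are not independent replicates. The 75 include the 4 members that reached the count minimum only through replicate 2: Uqcr10, Ndufa1, Ndufb6 and Ndufa5. These have 2, 3, 4 and 5 exons and departures of 3.07, 2.68, 2.43 and 1.75. The filter thus favours such genes, and no value was computed without them. By span, the 25 shortest members (1.21 to 5.42 kb) had a median departure of 1.25, the next 25 (to 9.49 kb) 1.40 and the 25 longest (to 100 kb) 0.71. The members are compact: their median span is 7.28 kb, against 17.3 kb for all genes with a protein-coding transcript, with 4 exons against 7 and a longest protein-coding transcript of 861 nt against 2680 nt. Levels leaned the other way, since the mean TPM on the log2 scale correlated with exon number at r = 0.383 across members, against 0.249 across all tested genes.

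**Figure D4:**
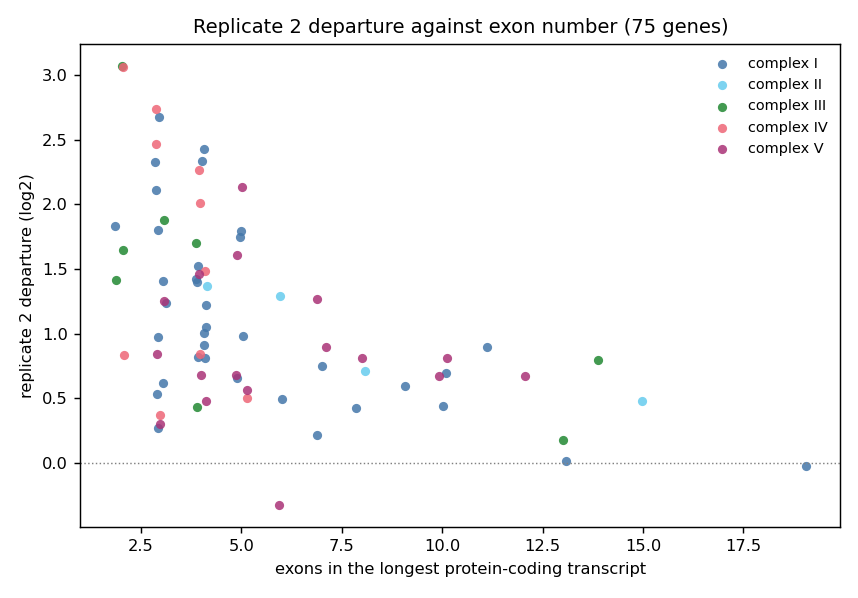
Departure of replicate 2 (log2) against the exon number of the longest protein-coding transcript for the 75 tested members, coloured by complex and spread slightly sideways. Genes with 2 to 4 exons reach departures of 3, while those with 9 or more stay below 1. The 75 include 4 members that reached the count minimum only through replicate 2.

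Reads of these genes were often assigned to isoforms annotated with a retained intron, that is, transcripts in which an intron has not been removed. Such isoforms held 37.2%, 26.1% and 51.8% of the members' transcript counts in replicates 1, 2 and 3, against 17.8%, 19.0% and 24.9% for all genes with a protein-coding transcript. The share was lowest in complex II, with 10.9%, 6.31% and 15.7%, and in complex IV it was 54.1%, 28.9% and 65.9%, above the other complexes in replicates 1 and 3 but below complex I (31.7%) in replicate 2. It was lowest in replicate 2 in all 5 complexes, whereas over all genes it was lowest in replicate 1. The shares pool counts over genes, so genes with many counts weigh most. In complex IV, retained-intron isoforms had 260 counts on average in Cox6c and 209 in Cox5a. Cox7b, the lowest of that complex among members with a mean of at least 10 in both classes, had 11.4. Whether reads of RNA not yet spliced were assigned to these isoforms was not tested.

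In members where both isoform classes could be compared, the departure of replicate 2 lay mainly in counts assigned to protein-coding isoforms. Uqcr10, Cox8a, Cox6a1 and Ndufa1, which had the largest departures, were not among the members compared. In the 30 members with a mean count of at least 10 in both classes, the median departure was 1.62 (3.07-fold) for protein-coding isoforms and -0.05 (0.963-fold) for retained-intron isoforms. Protein-coding isoforms departed more in 28 of 30 members, against 72.2% of 5119 genes, whose medians were 0.16 and -0.09. Some of the 30 reached the minimum of 10 only through replicate 2. For example, protein-coding counts in replicates 1, 2 and 3 were 0, 40.2 and 4.67 in Ndufa7 and 4.16, 46.6 and 4.27 in Cox7b. The filter thus favours members that are high in replicate 2, and these values are given without a test. Cox6b1 had 161 protein-coding counts in replicate 2, against 19.3 and 15.8 in replicates 1 and 3, and 8.93 retained-intron counts in replicate 2, against 13.5 and 33.3 in the others. Atp5b had 824 protein-coding counts in replicate 2, against 367 and 329, and 411 retained-intron counts, against 334 and 589. Ndufs1 and Ndufs7 were the exceptions, with differences of -0.09 and -0.13 between the classes. With the other quantifier, an alternative added after the data were seen, protein-coding isoforms departed more in 42 of 43 members, with medians of 0.94 and -0.08.

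**Figure D5:**
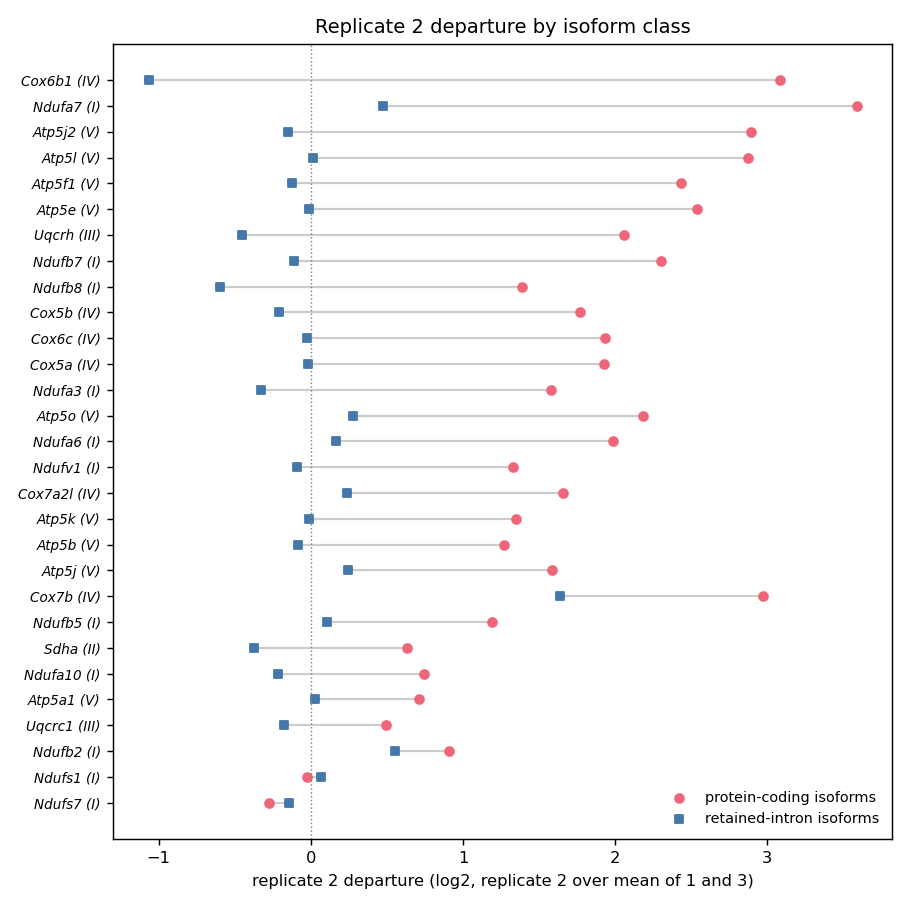
Departure of replicate 2 (log2) of the protein-coding (circles) and retained-intron (squares) isoforms of 29 of the 30 members with both, joined by a line, with the complex in brackets and members ordered by the difference. Retained-intron isoforms lie near 0 in most members, with Cox7b the farthest above it and Cox6b1 the farthest below.

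The leading isoform class differed between members. The log2 ratio of retained-intron to protein-coding TPM (each + 0.1) was tested against 0 with limma over all 5603 genes with both classes and a mean count of at least 50, among them 31 of the 45 members with a retained-intron isoform. Retained-intron isoforms were higher in 5 members, against 19.9% of all genes tested, and lower in 7 members, against 30.3%, so neither count was above its background share in the full set of libraries. Of the 7, Cox6a1 and Atp5e reached the minimum mean count of 50 only through replicate 2. The median ratio was 0.12 in members and -0.23 in all genes. Atp5f1, the b subunit of the stalk that holds the head of complex V, had the largest ratio: 5.34, 5.10 and 11.7 TPM of retained-intron isoforms in replicates 1, 2 and 3 and 0.42, 3.00 and 0.56 TPM of protein-coding ones (log2 ratio 2.76 ± 0.63 (SE), limma adjusted p = 0.0113). Ndufa10 (1.85), Atp5j (1.77), Ndufv1, which binds NADH (1.55), and Ndufs7 (1.21) were the other members called, with limma adjusted p of 0.00541, 0.00761, 0.0257 and 0.0239, all positive in 3 of 3 libraries. Without replicate 1 the ratios of Atp5f1 (2.45), Ndufv1 (1.40) and Ndufs7 (1.38) no longer passed, nor did Ndufv1 without replicate 3 (1.12) and Ndufs7 without replicate 2 (1.11).

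At the other end stood Cox6a1, with retained-intron isoforms at 0, 0.68 and 0.18 TPM and protein-coding ones at 2.60, 17.3 and 1.48 TPM in replicates 1, 2 and 3 (log2 ratio -3.91 ± 0.51 (SE), limma adjusted p = 0.00134). Cox7a2l (-2.37), Atp5e (-2.17), Atp5a1 (-2.02), Ndufa9 (-1.88), Uqcrc2 (-1.58) and Ndufb5 (-1.36), named although outside the rule for named genes, were also called, all negative in 3 of 3 libraries, with limma adjusted p between 0.00178 and 0.0438. Atp5e (-2.16), Ndufa9 (-1.68), Uqcrc2 (-1.41) and Ndufb5 (-1.49) no longer passed without replicate 1, nor Atp5e (-1.33), Uqcrc2 (-1.35) and Ndufb5 (-0.81) without replicate 2. With no filter on counts the calls of Atp5f1, Ndufv1, Atp5e and Ndufb5 were lost. The catalytic pair of complex V thus differed, Atp5a1 being called towards protein-coding isoforms and Atp5b not called at a ratio of 0.89 (limma adjusted p = 0.0790). With the other quantifier 11 of 31 members were called towards retained-intron isoforms, against 33.7% of all genes, and 9 towards protein-coding ones, against 30.1%. Without replicate 2 the counts were 11, above the 18.3% of all genes, and 4, against 23.7%. Without replicate 1 they were 2, against 13.6%, and 3, against 19.3%, and without replicate 3 they were 4, against 15.9%, and 9, against 33.8%.

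Some members share sequence or position with other genes, which limits how their reads can be placed. Annotated pseudogenes shared windows of 50 nt with 33 members, 67 pseudogenes in all. Only Atp5l, subunit g of complex V, shared over 50% of its windows with 1 of them. Most pseudogenes had few counts, and 5 had a mean of at least 10. The genes named next were picked after their values were seen. Ndufb4c, a processed copy sharing 37.0% of the windows of Ndufb4, had 21.1 counts on average, against 21.9 for Ndufb4 itself, so the level of Ndufb4 is uncertain. Gm10175 had 18.1 counts, against 44.3 for Atp5g2. Gm15920, which shares 26.2% of the windows of Ndufa12, had 15.8 counts, against 27.2 for Ndufa12. Gm20519 had 58 counts and shares 2.2% of the windows of Ndufb4. Gm17229 had 208 counts and shares 0.1% of those of Atp5g1. Exons of 25 members overlap exons of a gene on the opposite strand, and for 21 of them that gene had a mean count of at least 10. The strand setting of the counting is not given in the sources used here, so such reads cannot be told apart. Cox6c overlaps Vps13b (8035 counts on average, against 330 for Cox6c) over 7.0% of its exon bases.

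The quantifiers gave unlike levels for several members. The median log2 ratio of the other quantifier to the main tables was 0.27 over all 83 members, those near 0 included. It was 0.30 over all protein-coding genes with a mean of at least 1 TPM, so the sets were filtered differently. Ndufa7 had a mean of 42.2 TPM with the other quantifier and 6.38 TPM in the main tables, Ndufs8 13.6 and 3.31 TPM, and Cox7a2 19.3 and 5.37 TPM. In the other direction stood Ndufa1 with 4.38 and 7.29 TPM, Atp5e with 5.89 and 9.10 TPM and Atp5mpl with 6.53 and 9.40 TPM. Complex V remained above the other complexes in 3 of 3 libraries with the other quantifier, by 0.59 over complex I on the log2 scale.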

How the data were processed

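Total RNA of the chromatin fraction was measured in 3 libraries of 1 group (fragments of 250 to 400 nt). Per the file headers, the authors deposited gene and transcript tables in the layout of RSEM, with expected counts and TPM, and transcript tables in the layout of kallisto, called the other quantifier here, with estimated counts and TPM. Per the deposited notes the genome was mm10 with GENCODE M21. For the aligner and quantifiers, names, versions and strand setting were not given in the sources used here. Table entries with no annotated gene held 0.845%, 0.282% and 0.179% of the counts, in replicate order, and were not used. There were 0 unused columns of other samples. Counts were scaled with edgeR 4.0.16 (TMM) in R 4.3.3, and DESeq2 1.42.0 size factors were an alternative. Variation between libraries was tested with a chi-square test on rounded expected counts (mean of at least 10). Isoform ratios were tested with limma 3.58.1 (mean of at least 50, pseudocount 0.1 TPM). Both had Benjamini-Hochberg adjustment over all genes tested. Depth was 19919358 to 22023921 counts, and the spread between libraries may be technical. The code was tested on simulated data. The members and lists were chosen with earlier results of these data known. Genes named were all members of complexes II and III, the 3 highest and 2 lowest of the others, paralog sets, the 5 largest and 3 smallest departures, up to 5 isoform calls in each direction, the 3 largest quantifier ratios in each direction among members with a mean of at least 1 TPM, and the highest and lowest gene of each list, with the exceptions stated and apart from 1 member that is not reported here by name. Promoter entries were found for 69 members.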

Additional observations from a re-analysis of the deposited data

How the results depend on the processing

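No paired analysis was possible because all libraries belong to 1 group. With the other quantifier the median level of complex II was 8.28 TPM, the gap of complex V was 0.59 over complex I, 0.21 over complex II and 0.33 over complex IV (log2), and the replicate 2 departures were 0.51 for all members and 0.43, 0.52, 0.92, 0.61 and 0.50 for complexes I to V. With it, members' protein-coding isoforms departed by 0.94 and 11 members had higher retained-intron isoforms. With TPM rescaled to protein-coding genes the medians were 22.3 TPM for all members and 18.7, 23.5, 27.6, 26.2 and 43.8 TPM for complexes I to V. Among members with a mean of at least 1 TPM complex V minus complex IV was -0.038. At a threshold of 5 TPM 24 members were detected throughout, against 21.7% of all genes. Requiring a mean count of 50 gave 42 varying members of 45 tested, against 80.2% of all genes. Retained-intron isoforms were higher in 3 of 44 members with no filter (12.9% of all genes) and in 1 of 10 at a mean count of at least 200 (22.3%), where they were lower in 1 (33.4%). Leaving out a replicate gave 18 to 63 varying members (47.5% to 54.7% of all genes), 2 to 11 with higher (13.6% to 18.3%) and 3 to 9 with lower retained-intron isoforms (19.3% to 33.8%), and median levels of 2.87 to 6.31 TPM over all members. Where no construction of the alternative is named, the cause was not tested. Of the values that answer a comparison, 120 stayed, 28 moved and 1 reversed, and of the named genes' values 132 stayed, 16 moved and 16 lost their call. Levels and gaps between complexes stayed if they moved by less than their SD over the 3 libraries, replicate 2 included. Departures were set against the gap between replicates 1 and 3, and counts were judged by their ratio to the main count alone. The rule is loose: complex IV, at 6.00 TPM with an SD of 6.14, stayed at 11.7 TPM among members with a mean of at least 1 TPM. The tally thus does not measure how firm the values are. The 8 untested members had mean counts of 0 to 1.33, and 5 of them had 0 counts in every library.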
